A study of Mus musculus with 8 samples.

Results

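The subunits of the oxidative phosphorylation machinery were followed in the retinal pigment epithelium (RPE) of mice lacking *Bbs8* and of their wild type littermates. The members are the genes whose symbols begin with Nduf, Uqcr, Cox followed by a digit from 4 to 8, or Atp5, the 4 succinate dehydrogenase genes Sdha to Sdhd, and the mitochondrially encoded genes of the Nd, Co, Atp and Cytb series, as long as they reached 1 CPM, a count scaled to the size of its library, in 4 of the 8 libraries. Of 107 identifiers with such a symbol, 99 passed this filter, out of 12889 genes that passed it in the whole data set. They comprised 42 genes of complex I, 4 of complex II, 9 of complex III, 18 of complex IV and 17 of complex V. The symbol pattern also caught 9 genes that are not subunits, which are Ndufaf1 to Ndufaf8, assembly factors of complex I, and Atp5s. By genome, 88 members were nuclear and 11 mitochondrial. Ndufa4 was placed with complex IV, where its protein resides, and Cox7a2l was counted there by its symbol alone. Of the 99, 98 were at or above 1 CPM in all 8 libraries, and none passed the filter through the libraries of 1 genotype alone.

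Oxidative phosphorylation is carried out in the inner mitochondrial membrane. Complexes I and II feed electrons from NADH and succinate into the chain, complex III hands them to cytochrome c and complex IV to oxygen, and the proton gradient built by complexes I, III and IV drives ATP synthase, complex V. A few core subunits of every complex except complex II are encoded in the mitochondrial DNA, and all others are nuclear genes whose products are imported. The RPE is an epithelium that relies heavily on this pathway and supports the adjacent photoreceptors, whose inner segments are themselves packed with mitochondria.

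RNA came from RPE isolated at postnatal day 29 (P29) from 4 *Bbs8*+/+ and 4 *Bbs8*-/- animals of the C57/Bl6 strain. Both groups were untreated littermates, their sex was not determined, and each animal was 1 library, called WT 1 to 4 and KO 1 to 4 here. The allele was lost throughout the body, so the photoreceptors next to the RPE lacked *Bbs8* as well. The RPE was freed from the eyecup with trypsin after the other ocular tissues had been taken off, and 30 ng of RNA per animal was sequenced with a protocol that reads only the 3′ end of polyadenylated transcripts. CPM values are scaled by edgeR's TMM factors and are not divided by transcript length.

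Gene counts per library ranged from 2389835 to 3093428, and the floor of 3 counts corresponded to 1.02 to 1.23 CPM, which covers counting error only. *Ttc8*, the annotation's symbol for *Bbs8*, was at 35.5, 53.0, 58.9 and 43.1 CPM in WT 1 to 4 and at 6.16, 1.79, 5.60 and 5.24 CPM in KO 1 to 4, a log2 fold change of −3.34 (SE 0.294, adjusted p = 2.47e-11). WT 1 stood apart from the other *Bbs8*+/+ libraries. Of 4911 genes averaging 30 CPM or more, 76 lay more than 2-fold below the other WT libraries in WT 1 and 0 above, against 1 or 2 below in WT 2 to 4 and 7 to 19 below the rest of their group in the KO libraries. Of the 84 members at this level, 4 were among them, namely *Ndufa1*, *Uqcrfs1*, *Cox7c* and *Atp5j*. Reads that fell on no gene made up 17.0% to 18.4% of the reads that the counting recorded in a WT library and 19.8% to 20.6% in a KO library.

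Marker genes of other cell types were counted in the isolated RPE, several of them at levels that differed between genotypes. Of 13 RPE markers, 4 rose and 4 fell, the latter including *Rpe65*, the isomerase of the visual cycle. They summed to 37553 to 38680 CPM in *Bbs8*+/+ and to 46154 to 49782 CPM in *Bbs8*-/- libraries. The higher sum came from *Ttr*, the transport protein for thyroid hormone and retinol, at 20173 to 21446 and 29945 to 33222 CPM, and the other 12 summed to 16803 to 17675 CPM in *Bbs8*+/+ and to 16209 to 16613 CPM in *Bbs8*-/- libraries. The 16 photoreceptor markers summed to 39909 to 41684 CPM in *Bbs8*+/+ and to 18568 to 19307 CPM in *Bbs8*-/- libraries. Of these, 10 fell and 4 rose, and the latter were the cone genes *Gnat2*, *Gngt2*, *Opn1sw* and *Pde6h*, whereas the cone gene *Arr3* did not pass the test (log2 fold change −0.13, adjusted p = 0.808). All 15 tested lens markers and 5 of 8 erythrocyte markers fell, 9 of 12 markers of Müller and reactive glia rose, 2 of 8 fibroblast markers fell, and none of 8 microglial and 8 endothelial markers passed the test. In such bulk samples, fewer cells of a type and less RNA per cell cannot be told apart. The part of these shifts in the values below was not tested.

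Of the 99 members, 6 rose and 13 fell in *Bbs8*-/- RPE, with the threshold of 0.05 applied to adjusted p-values of edgeR's quasi-likelihood test, two-sided, with Benjamini-Hochberg adjustment over all 12889 tested genes. Over all tested genes, 5.46% were higher and 6.8% lower by the same rule, and 12.3% were called in either direction, beside 19 of 99 members (19.2%). Of the 88 nuclear members, 60 averaged 100 CPM or more, a level at which 40.0% of all 1659 tested genes and 14 of the 60 members (23.3%) were called. The median size of the log2 fold change was 0.18 in these 60 members and 0.24 in the 1659 genes. The median log2 fold change was −0.06 over the members, −0.05 over the 88 nuclear members, −0.14 over the 11 mitochondrial members and 0.02 over all tested genes. *Cox7a1* was the only tested member with a log2 fold change beyond 1 in either direction. For 22 of the 99 members the WT and KO libraries did not overlap, 7 of them higher and 15 lower in *Bbs8*-/- RPE, against 16% of all tested genes. Non-overlap was more common at high levels. At a mean of 100 CPM or more it held for 18 of the 60 nuclear members and for 727 of the 1659 tested genes.

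With libraries scaled by size alone in place of TMM, the members split into 10 higher and 8 lower, all tested genes into 1005 higher and 657 lower in place of 704 and 877, and the nuclear median became 0.04. Without WT 1, 7 members were higher and 15 lower, where 5.08% and 6.68% of all 12689 genes then tested were.

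**Figure D1:**
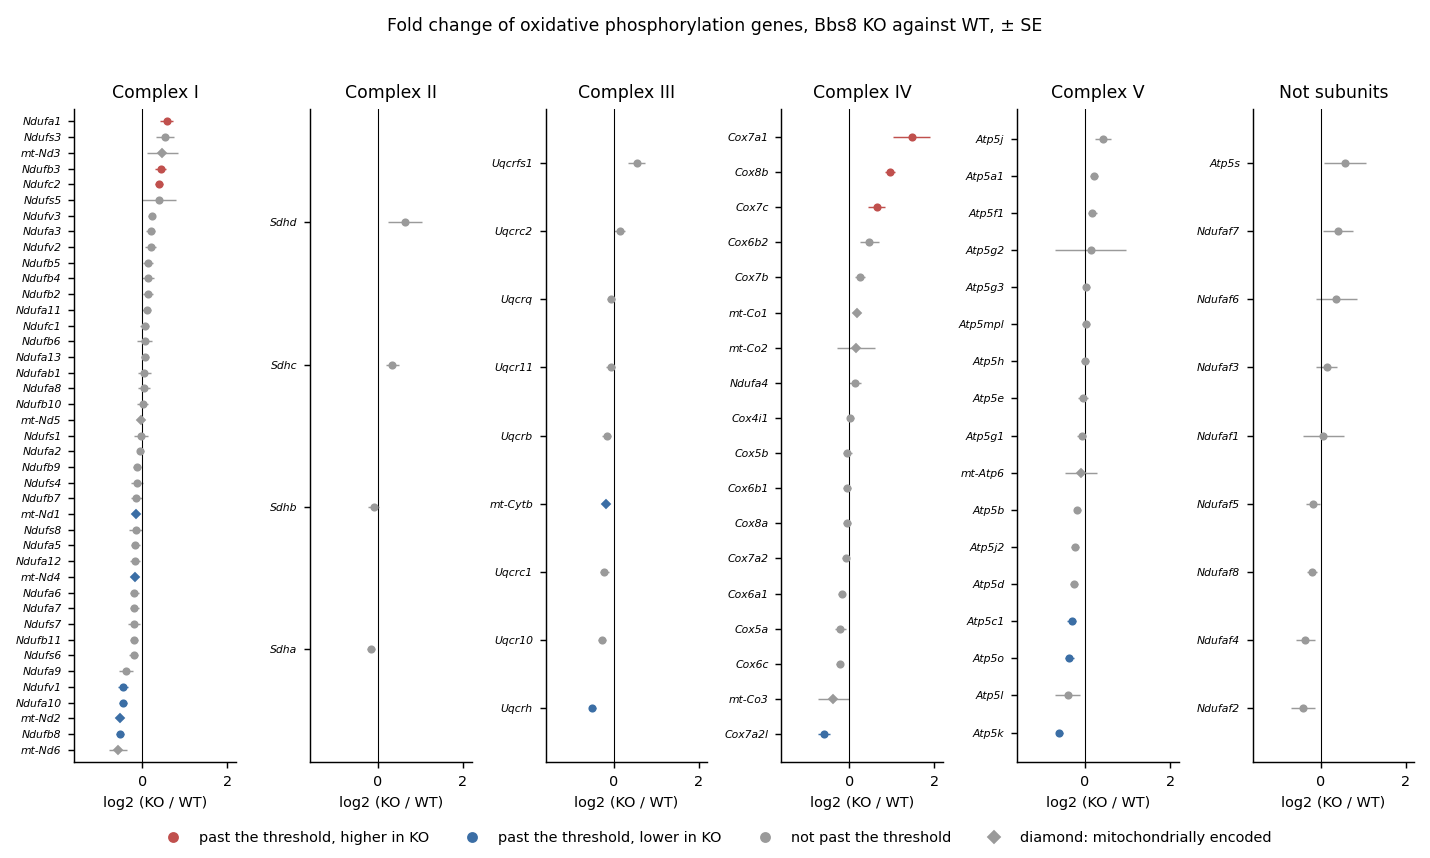
Log2 fold change of *Bbs8*-/- (KO) against *Bbs8*+/+ (WT) RPE (x axis, ± SE, n = 4 libraries per genotype) of 98 of the 99 tested members, 1 panel per complex and genes ordered by fold change. Red and blue mark the 6 higher and 12 lower members drawn that were past the threshold, grey the 80 others, and diamonds mitochondrially encoded genes. Changes in both directions are found in complexes I and IV, and in III and V the genes past the threshold were all lower, whereas scaling by library size alone put 1 gene up and 1 down in each of III and V.

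Complex I, the NADH dehydrogenase and largest enzyme of the chain, had 3 nuclear subunits up-regulated and 4 down-regulated among 36, and their median log2 fold change was −0.01. The 3 that rose were *Ndufa1*, *Ndufb3* and *Ndufc2*, accessory subunits of the membrane arm. The level of *Ndufc2* (ENSMUSG00000030647, GRCm38 chromosome 7, 97400003 to 97407802, forward strand) was 208, 196, 200.3 and 182 CPM in WT 1 to 4 and 258, 273, 261 and 243 CPM in KO 1 to 4. All *Bbs8*-/- libraries lay above all *Bbs8*+/+ libraries, with a log2 fold change of 0.40 (SE 0.0948, adjusted p = 0.00302). *Ndufb3* stood at 146, 268, 258 and 291 CPM in WT 1 to 4 and 357, 315, 292 and 337 CPM in KO 1 to 4. It did not overlap between genotypes either, WT 1 was the lowest library, and the log2 fold change was 0.44 (SE 0.126, adjusted p = 0.0158). *Ndufa1*, which lies on the X chromosome, was at 62.6, 147, 178 and 130.4 CPM in WT 1 to 4 and 184, 209.6, 174 and 198 CPM in KO 1 to 4. Here WT 3 reached into the range of the *Bbs8*-/- libraries, WT 1 was far below the others, and the log2 fold change was 0.57 (SE 0.162, adjusted p = 0.0140). Without WT 1 the log2 fold changes of *Ndufa1* and *Ndufb3* were 0.34 (adjusted p = 0.0263) and 0.26 (adjusted p = 0.0429). *Ndufa1* fell short of the threshold without KO 2 (adjusted p = 0.0618) or KO 4 (0.0544), and *Ndufb3* without KO 1 (0.0708) or KO 4 (0.0602). With DESeq2 neither passed (adjusted p = 0.241 for *Ndufa1* and 0.191 for *Ndufb3*).

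None of the 4 nuclear complex I genes that fell overlapped between genotypes, and 3 of them are described here. *Ndufv1* encodes the flavoprotein that oxidises NADH, at the tip of the matrix arm. It was at 168, 148, 165 and 136 CPM in WT 1 to 4 and 108, 91.4, 126 and 125 CPM in KO 1 to 4, with a log2 fold change of −0.45 (SE 0.121, adjusted p = 0.00844). The highest *Bbs8*-/- library of *Ndufv1* was only a little below the lowest *Bbs8*+/+ library. *Ndufa10*, an accessory subunit of the membrane arm, was at 296, 251, 269 and 248 CPM in WT 1 to 4 and 175, 209, 218 and 173 CPM in KO 1 to 4, and its log2 fold change was −0.46 (SE 0.101, adjusted p = 0.00132). *Ndufb8* (ENSMUSG00000025204, GRCm38 chromosome 19, 44548572 to 44555440, reverse strand), also of the membrane arm, was at 405, 342, 291 and 347 CPM in WT 1 to 4 and 247, 243, 230.0 and 241 CPM in KO 1 to 4. The *Bbs8*-/- libraries of *Ndufb8* were close together and all lower, with a log2 fold change of −0.53 (SE 0.0957, adjusted p = 9.92e-05). The study names *Ndufa9*, a subunit at the junction of the arms, among the proteins up-regulated at P29 in its proteome. The RNA of *Ndufa9* was lower in all *Bbs8*-/- libraries, without overlap, but did not pass the test. It was at 58.5 ± 3.44 CPM in *Bbs8*+/+ and 44.9 ± 7.83 CPM in *Bbs8*-/- RPE (SD, n = 4, log2 fold change −0.38, SE 0.169, adjusted p = 0.155). The remaining 28 nuclear subunits of complex I did not pass the test. Without KO 2 the adjusted p of *Ndufv1* was 0.0615.

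Complex II, the succinate dehydrogenase that also belongs to the citric acid cycle, is encoded by nuclear genes alone, and none of its 4 subunits passed the test. The flavoprotein gene *Sdha* was at 177 to 227 CPM in *Bbs8*+/+ and 172 to 204 CPM in *Bbs8*-/- libraries, with a log2 fold change of −0.16 (SE 0.103, adjusted p = 0.371). The values of *Sdhb*, the iron-sulfur subunit, were 116 to 152 and 95.3 to 144 CPM, with −0.10 (SE 0.127, adjusted p = 0.720). For the membrane anchors, the log2 fold changes were 0.34 (SE 0.155, adjusted p = 0.168) for *Sdhc* and 0.63 (SE 0.391, adjusted p = 0.350) for *Sdhd*. *Sdhd* had only 9 to 37 counts per library. Without WT 1 the log2 fold change of *Sdhc* was 0.17 (adjusted p = 0.523). All 4 genes overlapped between genotypes.

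Complex III, which passes electrons from ubiquinol to cytochrome c, had 1 of 8 nuclear subunits past the threshold, down-regulated, or 1 down and 1 up with library size alone as scaling. *Uqcrh* (ENSMUSG00000063882, GRCm38 chromosome 4, 116066965 to 116075071, reverse strand), the hinge protein that helps cytochrome c dock, was at 439, 452, 388 and 424 CPM in WT 1 to 4 and 293, 296, 308 and 303 CPM in KO 1 to 4. The *Bbs8*-/- libraries formed a tight group below all *Bbs8*+/+ libraries, with a log2 fold change of −0.50 (SE 0.0844, adjusted p = 2.58e-05). The other 7 nuclear subunits did not pass the test. Among them *Uqcrfs1*, the Rieske iron-sulfur protein, named after its values were seen because it is low in WT 1, was at 29.8, 75.3, 77.7 and 62.1 CPM in WT 1 to 4 and 76.0, 75.6, 112 and 89.8 CPM in KO 1 to 4 (log2 fold change 0.54, SE 0.190, adjusted p = 0.0583). Without WT 1 the log2 fold change was 0.30 (adjusted p = 0.217).

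**Figure D2:**
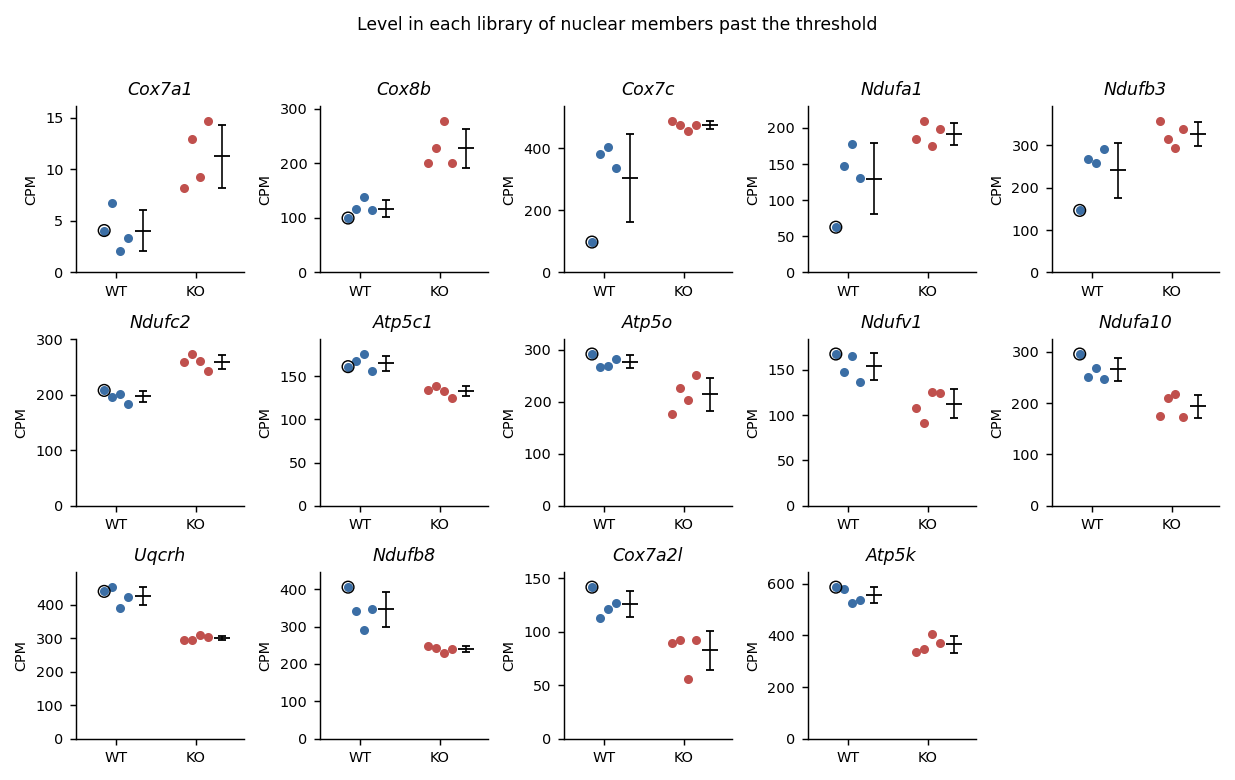
CPM (y axis, from 0) in each *Bbs8*+/+ (WT, blue) and *Bbs8*-/- (KO, red) library for 14 of the 15 nuclear members past the threshold, with the mean and SD at the side (n = 4). The circled point is WT 1, which lies lowest for *Cox8b*, *Cox7c*, *Ndufa1* and *Ndufb3* at 99.9, 98.2, 62.6 and 146 CPM. Only *Ndufa1* overlaps between genotypes.

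Complex IV, cytochrome c oxidase, held the 2 largest rises among the tested members. Of its 15 tested nuclear genes, 3 were up-regulated and 1 was down-regulated. Several of its small subunits exist as paralogues with a broad form and a form typical of heart and skeletal muscle. *Cox8b* (ENSMUSG00000025488, GRCm38 chromosome 7, 140898945 to 140900446, reverse strand) is of the latter kind. It was at 99.9, 116, 139 and 114 CPM in WT 1 to 4 and 202, 229, 278 and 202 CPM in KO 1 to 4, so that all *Bbs8*-/- libraries lay above all *Bbs8*+/+ libraries. The log2 fold change was 0.96 (SE 0.117, adjusted p = 6.89e-08), a 1.94-fold higher level. *Cox7a1* (ENSMUSG00000074218, GRCm38 chromosome 7, 30184144 to 30186078, forward strand), the muscle form of its subunit, was rare at 4.06, 6.71, 2.04 and 3.34 CPM in WT 1 to 4 and 8.21, 12.9, 9.20 and 14.7 CPM in KO 1 to 4. These values rest on 5 to 18 counts in *Bbs8*+/+ and 20 to 42 counts in *Bbs8*-/- libraries. They did not overlap, with a log2 fold change of 1.46 (SE 0.442, adjusted p = 0.0223). Leaving out WT 3, WT 4, KO 2 or KO 4 left *Cox7a1* short of the threshold, with adjusted p between 0.0642 and 0.0928.

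The window from 250 bases before to 50 bases after the start of *Cox8b* (RefSeq, GRCm38.p6) is shown because *Cox8b* was the member with the strongest rise by adjusted p and its window differs from those of the other genes that rose. Capitals mark the only match to any of 4 motifs searched on both strands, the string TATAAA. It begins at base 255 of the window, which lies downstream of the annotated start.
Cox8b, chr7:140900397-140900696, reverse strand: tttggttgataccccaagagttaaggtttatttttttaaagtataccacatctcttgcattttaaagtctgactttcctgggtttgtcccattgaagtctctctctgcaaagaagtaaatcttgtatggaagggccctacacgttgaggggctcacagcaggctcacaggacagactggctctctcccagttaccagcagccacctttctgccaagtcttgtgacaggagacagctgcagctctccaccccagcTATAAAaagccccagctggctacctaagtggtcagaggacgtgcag

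The broad forms of the same subunits did not pass the test. *Cox8a* was at 418 to 602 CPM in *Bbs8*+/+ and 444 to 560.0 CPM in *Bbs8*-/- libraries (log2 fold change −0.06, SE 0.0924, adjusted p = 0.761), and *Cox7a2* at 346 to 377 and 299 to 366 CPM (log2 fold change −0.09, SE 0.0882, adjusted p = 0.597). Of the counts on *Cox8b* and *Cox8a* together, *Cox8b* took 19.3, 18.2, 18.7 and 17.6% in WT 1 to 4 and 26.5, 31.0, 36.8 and 31.2% in KO 1 to 4. The mean shares were 18.4% ± 0.722 against 31.4% ± 4.24 (SD, n = 4), and the genotypes did not overlap. *Cox7a1* took 1.12% ± 0.562 against 3.31% ± 1.14 (SD, n = 4) of the counts on *Cox7a1* and *Cox7a2*, again without overlap. *Cox6b2*, known from testis, took 8.85% ± 0.922 against 12.2% ± 2.49 (SD, n = 4) of the counts on *Cox6b2* and *Cox6b1*, without overlap, while its own log2 fold change of 0.47 (SE 0.213, adjusted p = 0.163) did not pass the test. *Cox4i2*, a form found in lung and induced by low oxygen, had 11, 5, 2 and 10 counts in WT 1 to 4 and 0, 1, 1 and 2 counts in KO 1 to 4. It was below the filter and was not tested. These shares are counts of 3′ ends and were compared between libraries only, with no test.

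**Figure D3:**
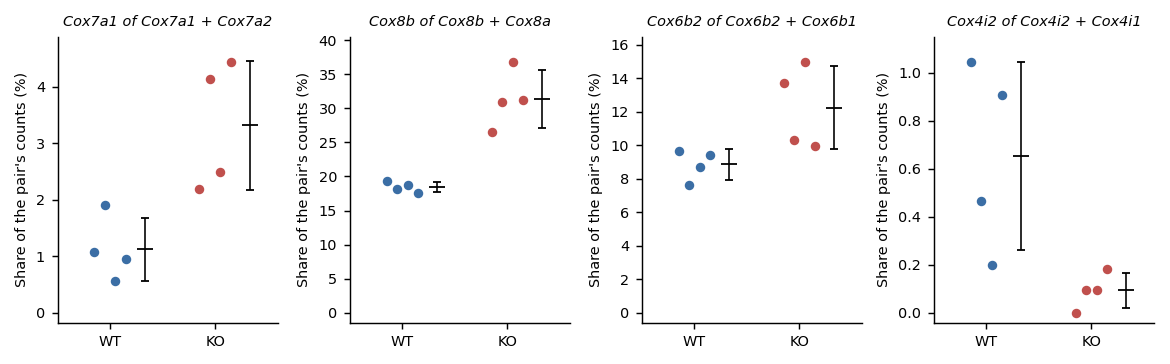
Share of a tissue-restricted subunit in the counts on it and its broad paralogue (y axis, %), for each *Bbs8*+/+ (WT, blue) and *Bbs8*-/- (KO, red) library, with the mean and SD at the side (n = 4). The shares of *Cox7a1*, *Cox8b* and *Cox6b2* were higher in all *Bbs8*-/- libraries and that of *Cox4i2* was lower in all of them, in the last case on 0 to 11 counts of *Cox4i2*.

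Skeletal muscle markers were nearly absent. Only 2 of 13 passed the filter, neither passed the test, 1 had 0 counts in every library, and the 13 summed to 9.70 to 26.4 CPM in *Bbs8*+/+ and to 2.05 to 8.74 CPM in *Bbs8*-/- libraries. *Cox6a2*, another muscle form, had 0 or 1 count in each library. Its broad form *Cox6a1* was at 524 ± 19.4 CPM in *Bbs8*+/+ and 461 ± 50.3 CPM in *Bbs8*-/- RPE (SD, n = 4, log2 fold change −0.19, SE 0.0836, adjusted p = 0.162).

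*Cox7c*, a subunit with a single broad form, was at 98.2, 382, 405 and 337 CPM in WT 1 to 4 and 489, 475, 458 and 475 CPM in KO 1 to 4. The *Bbs8*-/- libraries lay close together above all *Bbs8*+/+ libraries, while WT 1 was far below WT 2 to 4. The log2 fold change was 0.64 (SE 0.189, adjusted p = 0.0197), and 0.34 (adjusted p = 0.00107) without WT 1. With any 1 of the KO libraries left out, *Cox7c* fell just short of the threshold (adjusted p = 0.0512 to 0.0662), and with DESeq2 it was far from it (adjusted p = 0.368). Of the 100-base windows in its last 300 transcript bases, 55.7% occur in another gene, mainly the processed pseudogene *Gm10012*. *Cox7a2l*, a relative of *Cox7a1* and *Cox7a2* counted with complex IV by its symbol, fell (ENSMUSG00000024248, GRCm38 chromosome 17, 83501918 to 83517330, reverse strand). It was at 142, 113, 121 and 127 CPM in WT 1 to 4 and 89.9, 92.4, 55.6 and 92.6 CPM in KO 1 to 4, with KO 3 the lowest library, no overlap and a log2 fold change of −0.60 (SE 0.141, adjusted p = 0.00238). *Cox6c*, with the highest mean CPM of the nuclear subunits of complex IV, was at 643 ± 30.8 CPM in *Bbs8*+/+ and 549 ± 57.0 CPM in *Bbs8*-/- RPE (SD, n = 4) and did not pass the test (log2 fold change −0.23, SE 0.0803, adjusted p = 0.0600).

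The remaining paralogues did not pass the test. The log2 fold changes were 0.02 (SE 0.0844, adjusted p = 0.942) for *Cox4i1*, −0.06 (SE 0.0971, adjusted p = 0.783) for *Cox6b1*, 0.25 (SE 0.119, adjusted p = 0.191) for *Cox7b* and 0.13 (SE 0.136, adjusted p = 0.643) for *Ndufa4*. That of *Cox5b*, which the study names from its proteome, was −0.05 (SE 0.105, adjusted p = 0.850). *Cox7b2* and *Cox8c* had 0 counts in every library, and *Ndufa4l2* had 0 to 8. Without WT 1 the log2 fold change of *Ndufa4* was −0.04 (adjusted p = 0.904).

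Complex V, the ATP synthase, had 3 of 16 nuclear subunits down-regulated and none up-regulated, or 1 down and 1 up (*Atp5k* and *Atp5a1*) with library size alone as scaling. *Atp5k* (ENSMUSG00000050856, GRCm38 chromosome 5, 108433244 to 108434448, reverse strand) encodes subunit e, a membrane protein at the interface of ATP synthase dimers. Its level was 586, 578, 524 and 535 CPM in WT 1 to 4 and 336, 345, 406 and 371 CPM in KO 1 to 4. All *Bbs8*-/- libraries lay well below all *Bbs8*+/+ libraries, with a log2 fold change of −0.61 (SE 0.0834, adjusted p = 7.40e-07), a 0.656-fold level and the largest fall of any tested nuclear member. *Atp5o*, the protein that ties the catalytic head to the peripheral stalk, was at 292, 266.7, 269 and 282 CPM in WT 1 to 4 and 176, 226, 204 and 252 CPM in KO 1 to 4. The *Bbs8*-/- libraries were more spread than the *Bbs8*+/+ ones and all lower, with a log2 fold change of −0.37 (SE 0.101, adjusted p = 0.0110). *Atp5c1*, the central stalk subunit that turns inside the head, was at 161, 168, 176 and 156 CPM in WT 1 to 4 and 134, 138, 133 and 124 CPM in KO 1 to 4. Its libraries did not overlap and its log2 fold change was −0.32 (SE 0.107, adjusted p = 0.0443), close to the threshold, and it passed without WT 1 but fell short without each of the other 7 libraries in turn (adjusted p = 0.0622 to 0.121). *Atp5o* fell short without KO 1 (adjusted p = 0.0668).

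The genes of the catalytic head itself did not pass the test. *Atp5a1* had a log2 fold change of 0.21 (SE 0.0920, adjusted p = 0.147) and *Atp5b* of −0.18 (SE 0.0902, adjusted p = 0.219). Without WT 1 the log2 fold changes were 0.11 (adjusted p = 0.429) for *Atp5a1* and −0.27 (adjusted p = 0.0103) for *Atp5b*. The genes *Atp5g1*, *Atp5g2* and *Atp5g3* encode the same mature subunit of the membrane ring. Their log2 fold changes were −0.08 (SE 0.104, adjusted p = 0.729), 0.14 (SE 0.834, adjusted p = 0.954) and 0.02 (SE 0.0799, adjusted p = 0.905), with *Atp5g2* at only 2 to 10 counts per library. *Atp5j*, a peripheral stalk subunit that the study names from its proteome, was at 32.8, 68.6, 78.1 and 60.2 CPM in WT 1 to 4 and 109, 63.1, 77.2 and 70.9 CPM in KO 1 to 4. WT 1 was the lowest and KO 1 the highest library, the others overlapped, and the log2 fold change was 0.42 (SE 0.189, adjusted p = 0.160), or 0.21 (adjusted p = 0.482) without WT 1.

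The promoter window of *Atp5k* (RefSeq, GRCm38.p6) is given because it alone among the windows of the called members held more than 1 of the motifs known from genes of the respiratory chain. The first run of capitals holds the NRF1 motif GCGCATGCG, which matched on both strands at overlapping places, and the second holds the ETS motif CCGGAAG, bound by GABPA, on the opposite strand.
Atp5k, chr5:108434350-108434649, reverse strand: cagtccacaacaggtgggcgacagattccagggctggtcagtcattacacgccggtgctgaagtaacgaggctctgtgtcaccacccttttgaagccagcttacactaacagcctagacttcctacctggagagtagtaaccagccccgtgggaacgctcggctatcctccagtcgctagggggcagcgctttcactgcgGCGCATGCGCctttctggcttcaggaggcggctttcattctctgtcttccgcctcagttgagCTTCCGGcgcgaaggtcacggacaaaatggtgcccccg

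These motifs and the YY1 motif AAGATGGCG were searched on both strands in 300-base windows, which were matched for 75 of the 88 nuclear members. NRF1 was found in 10 of the 75 (13.3%), against 1.95% of all 27025 genes with a promoter window, tested here or not. ETS was in 18 (24%) against 9.93%, and YY1 in 8 (10.7%) against 1.64%. At least 1 of the 3 was in 30 of the 75 (40%) and in 12.7% of all genes with a window. Of the members past the threshold with a window, 2 of 8 that fell held 1 or more of them, *Atp5k* and *Uqcrh* (ETS), and 0 of the 6 that rose did. TATAAA was in 6 of the 75 (8%) and in 15.7% of all genes with a window. A match describes the letters in the window only.

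Of the 11 mitochondrially encoded members, 4 were down-regulated in *Bbs8*-/- RPE, none was up-regulated and 7 did not pass the test, whereas with library size alone *mt-Nd2* was lower and *mt-Co1* higher. That is 36.4% called, beside 12.3% of all tested genes and 40.0% of the 1659 tested genes averaging 100 CPM or more. Of those 1659 genes, 440 were lower and 223 higher, and the 4 called mitochondrial genes all lay above that level. *mt-Nd2* (ENSMUSG00000064345, GRCm38 chromosome M, 3914 to 4951, forward strand), a core membrane subunit of complex I, fell most clearly. It was at 16244, 13237, 13314 and 14716 CPM in WT 1 to 4 and 10561, 10281, 9260.2 and 10142 CPM in KO 1 to 4. All *Bbs8*-/- libraries lay below all *Bbs8*+/+ libraries, and the log2 fold change was −0.52 (SE 0.0506, adjusted p = 3.71e-10). The other 3 that passed the test, *mt-Nd1* and *mt-Nd4* of complex I and *mt-Cytb*, the haem-bearing core of complex III, changed by smaller amounts and overlapped between genotypes. *mt-Nd4* was at 31012, 24137, 24590.5 and 30189 CPM in WT 1 to 4 and 24979, 23682, 22957 and 25742 CPM in KO 1 to 4, with WT 2 and WT 3 inside the *Bbs8*-/- range and a log2 fold change of −0.18 (SE 0.0526, adjusted p = 0.0216). *mt-Cytb* was at 12689, 15432, 16221 and 17235 CPM in WT 1 to 4 and 14574, 12880.3, 13529.5 and 13596 CPM in KO 1 to 4, with a log2 fold change of −0.17 (SE 0.0551, adjusted p = 0.0304). *mt-Nd1* was at 10228, 10390.5, 11233 and 11853 CPM in WT 1 to 4 and 10348, 9445, 10010.3 and 9853 CPM in KO 1 to 4, with a log2 fold change of −0.14 (SE 0.0457, adjusted p = 0.0370). WT 1 was the lowest *Bbs8*+/+ library for *mt-Cytb* and *mt-Nd1* and the highest for *mt-Nd2* and *mt-Nd4*. With library size alone as scaling, *mt-Nd1*, *mt-Nd4* and *mt-Cytb* were no longer past the threshold, at −0.08 for *mt-Nd4* (adjusted p = 0.320), −0.09 for *mt-Cytb* (adjusted p = 0.377) and −0.05 for *mt-Nd1* (adjusted p = 0.530), and without WT 1 *mt-Nd4* was at −0.11 (adjusted p = 0.0519). Each of them also fell short when certain other libraries were left out, *mt-Nd4* without WT 4, KO 2 or KO 3 (adjusted p = 0.0927 to 0.182), *mt-Cytb* without any 1 of WT 2 to 4 and KO 2 to 4 (0.0773 to 0.256) and *mt-Nd1* without WT 3, WT 4 or any 1 of KO 2 to 4 (0.0795 to 0.251). None of the 3 passed with DESeq2 (adjusted p = 0.132 to 0.167) or the likelihood ratio test (0.253 to 0.335).

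*mt-Co1*, the catalytic core of complex IV, was at 1622, 1795, 1808 and 1656 CPM in WT 1 to 4 and 2077, 1972, 1821 and 1879 CPM in KO 1 to 4. All *Bbs8*-/- libraries were above all *Bbs8*+/+ libraries, but the log2 fold change of 0.17 (SE 0.0620, adjusted p = 0.0659) did not pass the test. It passed with library size alone (log2 fold change 0.26, adjusted p = 0.00290), with DESeq2 (0.18, adjusted p = 0.0435), with edgeR's default filter (0.18, adjusted p = 0.0452) and with limma voom (0.17, adjusted p = 0.00944), and without WT 1 its adjusted p was 0.0810. *mt-Nd5* was at 2920.3 to 3864 CPM in *Bbs8*+/+ and 2986 to 3345 CPM in *Bbs8*-/- libraries, with a log2 fold change of −0.02 (SE 0.0655, adjusted p = 0.908). *mt-Nd6*, the only mitochondrial member on the reverse strand, was at 42.1 ± 10.7 and 28.2 ± 8.21 CPM (SD, n = 4), and its log2 fold change was −0.57 (SE 0.220, adjusted p = 0.0868). Its 3′ end overlaps that of *mt-Nd5* on the other strand, and whether counting used strand is not given in the sources used here.

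The remaining mitochondrial members were counted at low levels. *mt-Co2*, *mt-Co3*, *mt-Atp6* and *mt-Nd3* had 11 to 55 counts per library and log2 fold changes of 0.15 (SE 0.450, adjusted p = 0.897), −0.38 (SE 0.365, adjusted p = 0.596), −0.10 (SE 0.381, adjusted p = 0.923) and 0.47 (SE 0.363, adjusted p = 0.492). *mt-Nd4l* had 0 counts in every library and *mt-Atp8* had 0 to 7. Only reads with a unique place in the genome were counted, and 32.8% to 34.5% of the reads that the counting recorded in a library had none. Of the 100-base windows in the last 300 bases of these genes, 98.5% for *mt-Co2*, *mt-Atp6* and *mt-Nd3*, 99.5% for *mt-Co3* and 98.5% for *mt-Nd4l* occur also in 1 of 6 unprocessed pseudogenes on chromosome 1 (GRCm38, 24612407 to 24616197). *mt-Co1*, at a far higher count, had 100% of its windows in another gene. *mt-Nd2* had 14.9%, in *Gm13339* on chromosome 2, and *mt-Nd1*, *mt-Nd4*, *mt-Nd5*, *mt-Nd6*, *mt-Cytb* and the hardly counted *mt-Atp8* had 0%. The part of these copies in the counts was not tested. Single windows from the ends of 4 genes (GRCm38) are shown to contrast windows with and without such a copy. The window of *mt-Co2* recurs in *Gm28661* and that of *mt-Co3* in *Gm28437*. Those shown for *mt-Nd2* and *mt-Cytb* recur in no other annotated gene, although other windows of *mt-Nd2* do.
mt-Nd2, chrM:4852-4951, forward strand: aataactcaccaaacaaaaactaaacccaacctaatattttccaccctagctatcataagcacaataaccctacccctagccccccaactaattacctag
mt-Cytb, chrM:15189-15288, forward strand: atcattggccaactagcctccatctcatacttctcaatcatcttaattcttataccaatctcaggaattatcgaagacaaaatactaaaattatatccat
mt-Co2, chrM:7594-7693, forward strand: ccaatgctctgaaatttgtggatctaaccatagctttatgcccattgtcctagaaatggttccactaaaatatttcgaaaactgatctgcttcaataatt
mt-Co3, chrM:9290-9389, forward strand: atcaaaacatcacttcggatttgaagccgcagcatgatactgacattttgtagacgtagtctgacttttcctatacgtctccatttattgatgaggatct

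**Figure D4:**
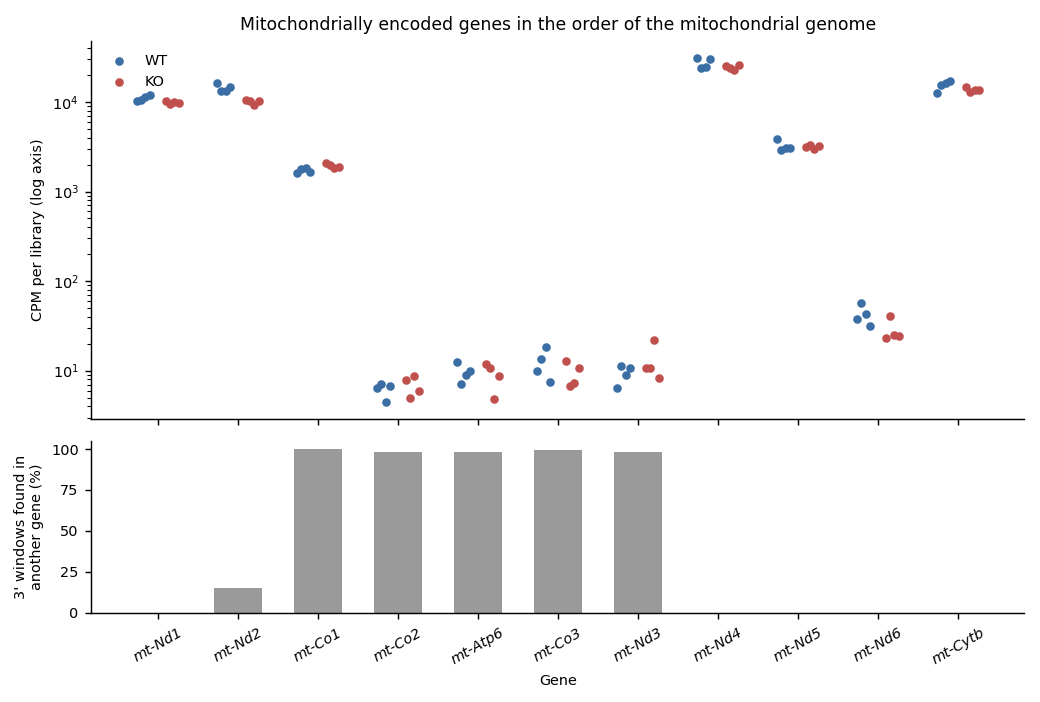
Upper panel, CPM (log axis) of the 11 mitochondrially encoded members in each *Bbs8*+/+ (WT, blue) and *Bbs8*-/- (KO, red) library, in the order of the mitochondrial genome. Lower panel, share (%) of 100-base windows in the last 300 bases of each gene that occur in another gene, which is 98.5% to 100% for *mt-Co1*, *mt-Co2*, *mt-Atp6*, *mt-Co3* and *mt-Nd3*, 14.9% for *mt-Nd2* and 0% for the others.

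Summed, the mitochondrial members held 6.66 to 7.59% of the gene counts in *Bbs8*+/+ libraries and 6.28 to 6.75% in *Bbs8*-/- libraries, with means of 7.09% ± 0.406 and 6.51% ± 0.246 (SD, n = 4). The genotypes overlapped on this scale. After TMM scaling the same sums were 68006 to 78744 CPM and 60632 to 65717 CPM, without overlap. The scales differ only by the TMM factors, which were 0.955 to 0.980 in *Bbs8*+/+ and 1.02 to 1.05 in *Bbs8*-/- libraries and so did not overlap themselves. The nuclear members together held 1.63% ± 0.0766 of gene counts in *Bbs8*+/+ and 1.68% ± 0.0527 in *Bbs8*-/- RPE, and their sums overlapped on both scales, as did those of the nuclear subunits of each complex. No test was made on these sums.

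Other genes of the pathway were read from the same fit, in which 5.46% of all tested genes were higher and 6.8% lower. Among 23 tested partner subunits and electron carriers outside the symbol pattern, 1 was up-regulated. This was *Usmg5*, a membrane subunit of ATP synthase that, like *Atp5k*, is known from its dimers. It was at 73.5, 188, 219.9 and 169 CPM in WT 1 to 4 and 319, 281, 235 and 233 CPM in KO 1 to 4, with WT 1 the lowest library, no overlap and a log2 fold change of 0.72 (SE 0.167, adjusted p = 0.00222). In contrast to *Atp5k*, its direction was upward, and without WT 1 its log2 fold change was 0.47 (adjusted p = 0.000391). With DESeq2 *Usmg5* did not pass (adjusted p = 0.155).

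Of 41 further assembly factors, 4 were down-regulated and none was up-regulated, beside 6.8% lower and 5.46% higher of all tested genes. *Uqcc3*, which assists the assembly of cytochrome b into complex III, was at 161, 135, 148 and 138 CPM in WT 1 to 4 and 57.9, 52.7, 66.4 and 77.9 CPM in KO 1 to 4. All *Bbs8*-/- libraries were below all *Bbs8*+/+ libraries, with a log2 fold change of −1.19 (SE 0.134, adjusted p = 9.83e-09). The other 3 serve complex IV. The log2 fold changes were −0.75 (SE 0.242, adjusted p = 0.0339) for *Coa7*, −0.55 (SE 0.182, adjusted p = 0.0421) for *Cox10*, an enzyme of haem A synthesis, and −0.41 (SE 0.136, adjusted p = 0.0421) for *Coa3*, which binds newly made mt-Co1. The 9 members that are not subunits had no call, with log2 fold changes between −0.42 and 0.56. Of 75 tested mitochondrial ribosomal proteins, *Mrpl49* (−0.44, SE 0.144, adjusted p = 0.0404) and *Mrpl34* (−0.38, SE 0.129, adjusted p = 0.0478) fell and none rose. That is a smaller share than the 6.8% of all tested genes that fell. With single libraries left out, *Coa3* fell short of the threshold in 7 of 8 cases (adjusted p = 0.0528 to 0.122), *Cox10* and *Coa7* in 6 each (0.0675 to 0.143 and 0.0672 to 0.0972), and *Mrpl49* and *Mrpl34* in 5 each (0.0765 to 0.163 and 0.078 to 0.168), whereas *Uqcc3* passed in all 8. With library size alone as scaling, *Coa7*, *Coa3*, *Cox10*, *Mrpl49* and *Mrpl34* did not pass (adjusted p = 0.0678 to 0.156).

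Of 31 genes that copy, transcribe or stabilise mitochondrial DNA and its RNA, *Lrpprc* alone passed the test, against 12.3% of all tested genes. *Lrpprc* binds and stabilises mitochondrial messenger RNAs and was at 76.8, 67.5, 67.0 and 91.8 CPM in WT 1 to 4 and 62.0, 52.0, 52.8 and 44.0 CPM in KO 1 to 4, without overlap (log2 fold change −0.53, SE 0.158, adjusted p = 0.0209). The mitochondrial transcription factor *Tfam* had a log2 fold change of 0.28 (SE 0.280, adjusted p = 0.611) and the mitochondrial RNA polymerase *Polrmt* of −0.75 (SE 0.429, adjusted p = 0.304). Of 22 regulators of mitochondrial biogenesis, 2 were down-regulated, beside 6.8% of all tested genes. *Esrrb*, a nuclear receptor related to the oestrogen receptors that is also expressed in rods, was at 270.1, 258, 290.2 and 304 CPM in WT 1 to 4 and 103, 104, 109.6 and 113 CPM in KO 1 to 4, with a log2 fold change of −1.39 (SE 0.102, adjusted p = 2.04e-13). The coactivator *Ppargc1b* was at 52.5, 51.1, 52.7 and 69.5 CPM in WT 1 to 4 and 37.0, 30.8, 41.2 and 35.6 CPM in KO 1 to 4, with a log2 fold change of −0.64 (SE 0.178, adjusted p = 0.0116). For both, all *Bbs8*-/- libraries lay below all *Bbs8*+/+ libraries. Without WT 4, *Ppargc1b* (adjusted p = 0.0901) and *Lrpprc* (0.133) fell short, as did *Lrpprc* without KO 4 (0.0878) and with library size alone as scaling (0.0602). The coactivator *Ppargc1a* (−0.07, SE 0.149, adjusted p = 0.850), *Nrf1* (−0.18, SE 0.258, adjusted p = 0.745), *Gabpa* (0.35, SE 0.406, adjusted p = 0.680) and *Esrra* (0.42, SE 0.327, adjusted p = 0.498) did not pass the test.

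Leaving out WT 1 shifted several members that had risen. Of the 19 members past the threshold, 18 remained, *mt-Nd4* was lost, and *Ndufv3*, *Cox6c*, *Atp5b* and *Atp5d* were gained, of which those outside the rule for named genes are given for that reason. *Ndufv3* was higher (0.26, adjusted p = 0.0217 without WT 1), and *Atp5d* (−0.30, adjusted p = 0.0403) and *Cox6c* (−0.22, adjusted p = 0.0445) were lower, as was *Atp5b*. The log2 fold change of *Cox8b* was 0.89 (adjusted p = 1.40e-09) and that of *mt-Nd2* −0.45 (adjusted p = 8.71e-16). Over 17 alternative settings, 9 of the 19 members stayed past the threshold in each. Among these were *Cox8b* and *Ndufc2*, which rose, and *Atp5k*, *Cox7a2l*, *Ndufb8*, *Uqcrh*, *Ndufa10* and *mt-Nd2*, which fell.

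**Figure D5:**
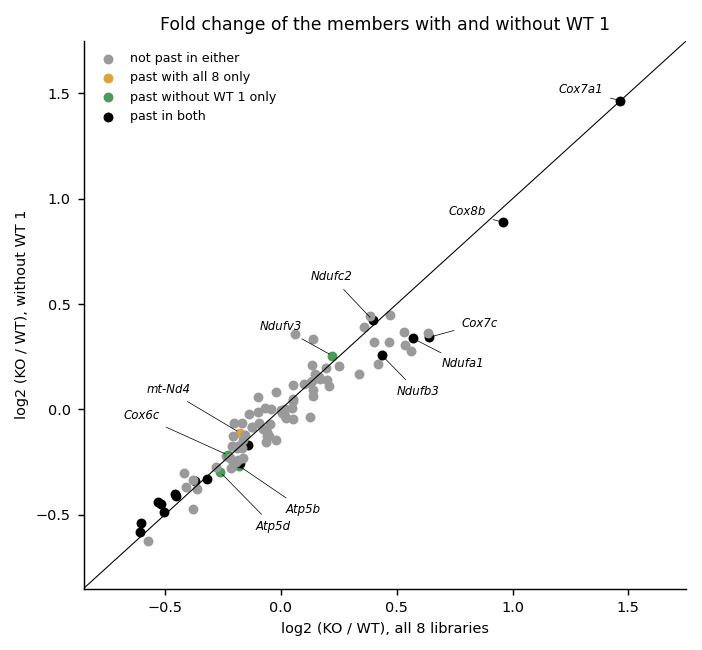
Log2 fold change (*Bbs8*-/- against *Bbs8*+/+ RPE) of 98 members fitted with all 8 libraries (x axis) and without WT 1 (y axis), with the line of equal values. Black points passed the threshold in both fits, the orange point (*mt-Nd4*) only with all 8, the 4 green points only without WT 1, and grey points in neither. *Cox7c*, *Ndufa1* and *Ndufb3* lie below the line and *Cox8b* and *Cox7a1* close to it.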

How the data were processed

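RNA of isolated RPE from 4 wild type and 4 *Bbs8*-/- mice at P29 was sequenced as single-end reads of 100 bp with the QuantSeq 3′ protocol. The authors trimmed the reads with BBDuk, aligned them to mm10 with STAR and assigned uniquely mapped reads to genes with htseq-count, and they deposited the raw counts per gene and library, without normalization, for 31053 Ensembl identifiers. The strand setting of the counting is not given in the sources used here. The summary rows of the counting, such as reads on no gene, stayed out of library sizes, and identifiers without a symbol stayed in.

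Symbols were taken from the GRCm38 annotation, which named 30934 identifiers. The 12889 genes that reached 1 CPM in 4 or more of the 8 libraries were tested with edgeR 4.0.16 in R 4.3.3, using TMM factors and the quasi-likelihood F test, two-sided, with genotype as the only term, Benjamini-Hochberg adjustment over all tested genes and a threshold of 0.05. SEs were derived from each fold change and its F statistic. The script of the quasi-likelihood test was checked on simulated counts. Between 2389835 and 3093428 counts fell on genes per library. Libraries were grouped by their labels, and the labels number them as biological replicates.

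Members, gene lists and marker lists were chosen with earlier results of these data known. Named are *Ttc8*, the mitochondrial members, the 4 Sdh genes, every member past the threshold (if a complex had more than 8, the 4 largest rises and 4 largest falls), the 2 with the highest mean CPM per complex, the subunit paralogues, 3 genes the study names from its proteome, listed pathway genes past the threshold, and 6 regulators. Genes named beyond this were chosen after their values were seen. Of the members past the threshold, 1 is included in the counts but is not reported here. Windows of 100 bases from the last 300 transcript bases were searched in all other annotated genes. Promoter windows came from RefSeq (GRCm38.p6) and were matched by symbol.

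Alternatives were DESeq2 1.42.0, limma voom 3.58.1, the likelihood ratio test, 3 other scalings, 2 other filters, replicate numbers as a block and each library left out. The proteome and the other time point of the study were not analysed here.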

Additional observations from a re-analysis of the deposited data

Results flagged for a closer look

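In each genotype the 4 libraries of the members named were searched for a library far from the other 3, relative to the range of the group. Of 90 groups of 4 libraries, 5 (5.56%) held such a library, and 2 of the 5 were in WT 1. For independent groups of normal values chance would give about 1 in 20. The 90 groups come from the same 8 libraries and are not independent, so that rate is only a guide. WT 1 was the highest library for *mt-Nd5*, at 3864 CPM, and the lowest for *Atp5g3*, at 547 CPM. KO 2 was the highest *Bbs8*-/- library for *mt-Nd6*, at 40.5 CPM, and KO 3 the highest for *Sdhd*, at 14.8 CPM. KO 3 was the lowest *Bbs8*-/- library for *Cox7a2l*, at 55.6 CPM.

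Reads that fell on no gene are not used in the comparisons. Of the reads that the counting recorded, they made up a mean of 20.2% in a *Bbs8*-/- library and 17.5% in a wild type library. The SDs were 0.381 and 0.658 percentage points (n = 4), and the genotypes did not overlap.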

How the results depend on the processing

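Of the 19 members past the threshold, 9 were kept in all 17 alternatives, and 11 in the alternative that kept fewest. Scaling by library size alone gave 10 members higher and 8 lower, and medians of 0.041 for nuclear and −0.052 for mitochondrial members, so the nuclear median changed sign. Leaving out a library gave 2 to 7 members higher and 9 to 15 lower, with the lowest counts of 2 and 3 higher without KO 4 and KO 2 and nuclear medians of −0.08 to −0.01. With the replicate block 7 members were higher and 12 lower, and 650 and 827 of all tested genes. Same-numbered libraries deviated together with correlations of −0.02 to 0.01, and 2 of 4 correlated best with their own number. Libraries of unlike number gave −0.02 to 0.02. With all values this near 0, they cannot show whether equal numbers mark a pair. *Atp5c1* fell short with the block and *Uqcrfs1* passed it. DESeq2 dropped *Cox7c*, *Ndufa1*, *Ndufb3*, *mt-Nd1*, *mt-Nd4* and *mt-Cytb*, and the likelihood ratio test *Atp5c1* and the same 3 mitochondrial genes. The cause of these losses was not tested. Scaling without photoreceptor, lens and erythrocyte genes, or without mitochondrial genes, changed no call among the members. At these depths *Sdhd*, *Atp5g2* and 4 mitochondrial members had SEs between 0.363 and 0.834 on the log2 scale, and changes larger than these SEs could go undetected.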
